A study of Rattus norvegicus with 25 samples.

Results

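Probe set b7007 holds 57 of the 4441 probes of the HuGChip, a microarray for the bacterial 16S rRNA gene, and comprises every probe whose name begins with b7007_. The first number after this prefix divides the set into 5 probe groups of 6, 24, 9, 8 and 10 probes, and the last number marks the variants of a probe group. The set was chosen on measured values: its share of detected probes was known to be similar in the 4 diet groups, so its values by diet are a description, and no test on them supports that choice. No source used here pairs the set with a bacterial taxon, and none is named.

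The samples are faecal DNA of Wistar rats fed for 12 weeks. The PO diet held an iso-energetic control oil, A+PO the control oil with aleurone (a layer of the cereal grain), LO linseed oil in its place, and A+LO both linseed oil and aleurone. There were 6 PO, 6 A+PO, 6 LO and 7 A+LO samples on 13 arrays. Nearly complete 16S genes were amplified with universal bacterial primers, labelled and hybridised, with a sample in Cy3 and another in Cy5 on each array. All samples without aleurone were in Cy3 and all with aleurone in Cy5, and the dye and the aleurone cannot be told apart. Arrays of the control oil and arrays of linseed oil were scanned separately, and the scan and the oil cannot be told apart either. The labels and the files number 4 of the A+LO samples differently, and each of these takes here the name of its array's LO sample, as in A+LO (LO 4 array). The labels do not state that each sample came from another rat, so errors and p-values measure only the spread between these samples.

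The 16S rRNA gene is carried by all bacteria and alternates stretches that hardly differ between bacteria with stretches that do. A probe of this kind is a short DNA strand that captures labelled copies of 1 such stretch, and variants of a probe allow for base differences between related bacteria. Because a labelled copy can bind to a probe it does not match fully, and because binding depends on base composition, the brightness of a spot is a relative measure for 1 probe across samples and not a count of bacteria. Levels of different probes are therefore shown side by side here and not ranked as abundances.

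The probes are 25 bases long. The sequences below, as deposited with the arrays, show how the variants of a probe group differ and are those on which the results turn. The first line of each group is its most often detected variant, written in lower case, and capitals in the other lines mark the bases that differ from it.

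In probe group 1 the differences lie in the first part of the probe and at 1 central base.
b7007_1_1: gcaagactggtgactgggatgaagt
b7007_1_2: gTGaAGctggtAactgggatgaagt
b7007_1_4: gTGagactggtAactgggatgaagt
b7007_1_5: gTGTAGctggtAactgggatgaagt

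In probe group 2 the bases at the 3′ end vary most.
b7007_2_24: agccggtcgcacccgaagtatgcgc
b7007_2_1: agccggtcgcacccgaagtGtgTgA
b7007_2_17: agccggtAgcacccgaagtatgcgc
b7007_2_23: agcTggtcgcacccgaagtatCTgA
b7007_2_22: agccgAtcgcacccgaagtGCATgT
b7007_2_2: agcTggCTTcGcccgaagtGCgTgc

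In probe group 3 the most often detected variant differs from the others at many bases.
b7007_3_7: cccagtacagagggggccgaagccg
b7007_3_6: cccGAtacaAaggggAGcAaGAccg
b7007_3_1: cccagCaTaATgAgAAccgaGAccg

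Probe group 4 holds the pairs of variants that differ at 1 base and most in detection.
b7007_4_7: gcttggtgtgcggggaatcgacccc
b7007_4_8: gcttggtgtgAggggaatcgacccc
b7007_4_5: gcttggtgtgGgAggaCtcgacccc
b7007_4_1: gcttggtgtgGgAggaTtcgacccc
b7007_4_3: gcttggtgtgAggggTTtcgacccc

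Probe group 5 was rarely detected.
b7007_5_8: tgatactgcgagactagagtaatgg
b7007_5_5: CgatactCcCaTGctagagAaCtgg

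Within a probe group any pair of variants differed by 1 to 11 bases, and 10 to 18 of the 25 positions were the same in all variants. The probe outside the set that is closest to a member differed from it by 5 bases. The share of G and C was 44% to 72% over the 33 members detected in at least 6 samples, with a median of 60%, and 44% to 68% over the other 24, with a median of 54%. Over all probes of the array the median was 56% for the 1153 detected in at least 6 samples and 48% for the other 3288.

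A probe counts as detected in a sample where over 0.5 of its spots, 3 per array, are well above background by the scanner software's own test, with spots marked as outliers left out. By this measure the set was seen in every sample. Of the 57 members, 16 (28.1%) were detected in all 25 samples, 9 in 23 or 24, 8 in 6 to 22, 9 in 1 to 5, and 15 (26.3%) in none. Over all 4441 probes, 9.12% were detected in every sample and 51.7% nowhere.

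By this detection test the number of detected members was similar between diets. In PO it ran from 28 to 36 with a median of 31 and a mean of 31.3 ± 2.88 (SD, n = 6), and in A+PO from 26 to 34 with a median of 32 and a mean of 30.7 ± 3.01 (SD, n = 6). In LO it ran from 23 to 33 with a median of 28 and a mean of 28.3 ± 3.27 (SD, n = 6), and in A+LO from 18 to 33 with a median of 28 and a mean of 27.9 ± 4.88 (SD, n = 7). The ranges of all 4 diets overlapped. The lowest count belonged to A+LO (LO 4 array), a channel with only 576 detected probes in all, and without it the A+LO mean was 29.5. The similarity rests on the detection test: counting a spot as detected at 3 background SDs gave means of 46.7 for PO, 31.2 for A+PO, 48.2 for LO and 22.4 for A+LO, with the Cy3 groups above the Cy5 groups.

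As mean shares of the 57 members, these counts are 55% under PO, 53.8% under A+PO, 49.7% under LO and 48.9% under A+LO, a range of 6.1 percentage points. Among the 22 of 66 probe sets with a mean share of at least 20%, that range over diets had a median of 10.8 points, and 3 sets had a smaller one than b7007. This was the property that singled the set out, so it carries no test. Over all probes of the array the mean share had the same order of diets, with 25.1% ± 5.39 (SD, n = 6) under PO, 24.8% ± 6.05 (SD, n = 6) under A+PO, 21.4% ± 3.03 (SD, n = 6) under LO and 18.8% ± 2.87 (SD, n = 7) under A+LO.

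Detection is a yes or no per probe, and the brightness of the members was less even. The intensities given below are the medians of the 3 spots of a probe, as deposited and unscaled, beside local backgrounds with sample medians of 39 to 90. Members with an intensity over 1000, a limit chosen after the values were seen, numbered 30.2 ± 3.6 (SD, n = 6) under PO, 26.3 ± 3.5 (SD, n = 6) under A+PO, 26 ± 6.36 (SD, n = 6) under LO and 22.7 ± 8.4 (SD, n = 7) under A+LO. The count went down to 5 in A+LO (LO 4 array) and 14 in LO 4, the other sample of that array, and up to 36 in PO 1.

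Probe group 1 was present throughout. Its 6 variants were each detected in 23 to 25 samples, and all 6 were detected in every PO and every A+PO sample. Its most often detected variant by mean level, b7007_1_1, had intensities from 177142 to 378473 with a median of 297676 in PO, and from 431030 to 767862 with a median of 491166 in A+PO. In LO it ran from 2821 to 614774 with a median of 379773, and in A+LO from 175 to 468210 with a median of 171812. The lowest values, 2821 in LO 3 and 175 in A+LO 1, come from 1 array, and A+LO 9 with 17402 and A+LO (LO 4 array) with 27594 came next, all of them below every control-oil sample.

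The least detected variant of the group, b7007_1_5, was missing only from A+LO (LO 4 array) and A+LO 9. Its intensities ran from 905 to 200791 in PO, 194 to 179086 in A+PO, 543 to 417107 in LO and 72.8 to 64951 in A+LO, so each diet held samples with high and with low values. Variant b7007_1_2 was detected in all samples and ran from 1074 in A+LO 9 to 591535 in LO 8. These 2 variants differ by the substitution A4T from b7007_1_2 to b7007_1_5, with positions counted from 1 at the 5′ end.

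Probe group 2 held most of the detected members. Of its 24 variants, 13 were detected in all 25 samples, 19 in at least 23, and only b7007_2_2 in none. Variants b7007_2_24 and b7007_2_1 stayed bright almost everywhere. The intensity of b7007_2_24 ran from 134795 to 408595 in PO, 408190 to 795816 in A+PO, 19612 to 670518 in LO and 4045 to 793302 in A+LO, with medians of 299243, 604098, 551974 and 481164. That of b7007_2_1 ran from 151708 to 391097 in PO, 423578 to 858356 in A+PO, 87361 to 618428 in LO and 3414 to 591537 in A+LO, with medians of 292658, 607506, 534923 and 331108. For both variants the raw intensities of PO lay below those of A+PO except at the edge. The highest PO value of b7007_2_24 was 408595 beside a lowest A+PO value of 408190, and for b7007_2_1 the ranges did not overlap. These are unscaled values of different dyes, Cy3 for PO and Cy5 for A+PO. After the scaling described below, the log2 differences of A+PO minus PO were -0.14 for b7007_2_24 and 0.01 for b7007_2_1. No saturated spot was found in the set among the spots not marked as outliers. Marked spots were checked only where all spots of a probe were marked.

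The low values of both variants came from linseed arrays, but not from the same samples. For b7007_2_24 the lowest intensities were 4045 in A+LO 1 and 19612 in LO 3, which share an array, while A+LO (LO 4 array) had 793302. For b7007_2_1 the lowest was 3414 in A+LO (LO 4 array), with 87361 in LO 4 and 92758 in A+LO 1. The spots behind these lows disagreed. Those of b7007_2_24 read 333, 141318 and 4045 in A+LO 1 and 7506, 285198 and 19612 in LO 3, and those of b7007_2_1 read 3414, 853 and 249916 in A+LO (LO 4 array). In the dim A+LO (LO 4 array) channel the median of b7007_2_24, from spots of 793302, 557 and 808777, was thus above its intensity in 5 of the 6 A+PO samples.

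A block of 18 variants, b7007_2_3 to b7007_2_20, enumerates every combination of 3 variable positions. They share 22 bases and carry A, C or G at position 22, C or T at position 23, and A, T or C at position 25, marked by capitals in the following members of the block.
b7007_2_3: agccggtagcacccgaagtatACgA
b7007_2_12: agccggtagcacccgaagtatCTgA
b7007_2_17: agccggtagcacccgaagtatGCgC
Each of the 18 was detected in 22 to 25 samples. Their levels moved together across samples. Pearson r between variants was taken on scaled log2 values of the median of the 3 spots, with spots marked as outliers kept. Over the 25 samples it ran from 0.54 to 1.00 with a median of 0.81 over 153 pairs. These values are a description, since the variants share channels, scale and nearly all of their bases.

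The block's level differed over orders of magnitude between samples of the same diet. Its median intensity in PO ran from 4149 in PO 6 to 250371 in PO 5, and in A+PO from 1362 in A+PO 6 to 496274 in A+PO 4. In LO it ran from 986 in LO 4 to 585295 in LO 8, and in A+LO from 90.6 in A+LO (LO 4 array) to 343937 in A+LO (LO 8 array). It was over 10000 in 18 of the 25 samples, and each diet included high and low samples. The sample on the same array tended to be high or low as well, as with 230224 in PO 4 beside 496274 in A+PO 4 and 4149 in PO 6 beside 1362 in A+PO 6.

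In 16 of the 25 samples the 18 variants lay within a factor of 5 of each other, and in LO 6 within a factor of 1.23, from 472965 to 583789. In others they split widely, up to a ratio of 2355 between the highest and the lowest in A+PO 5 and of 1881 in A+LO 9. In A+LO 9 and LO 11 the medians differed by the base at position 22. In A+LO 9 the 6 variants with A22C relative to b7007_2_3 had a median of 105208, the 6 with A22G 3265, and the 6 with A at this position 116. In LO 11, on the same array, these medians were 627808, 112745 and 22035. Single variants departed from their class: b7007_2_5, which has A at this position, read 77365 in A+LO 9 and 621028 in LO 11. In A+PO 5 the classes overlapped widely, with 483 for b7007_2_13 of the A22C class and 423000 for b7007_2_5. Wide splits also occurred with no excess of the A22C class, by factors of 15.7 in PO 1 and 37.6 in A+PO 1. Variant b7007_2_5 is cited here after its values were seen.

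The ratio of the A22C median to the A median was between 0.5 and 2 in 19 of the 25 samples, with a median of 1.23 over all of them. It was over 3 in 4 samples: PO 5 with 3.24, A+PO 5 with 5.94, LO 11 with 28.5 and A+LO 9 with 910. The next were A+PO 2 with 2.66, A+LO 11 with 2.03 and PO 2 with 1.92. The lowest was 0.737, in PO 1. Only the ratio's change across samples is read, and it does not say which variants were better matched. In A+LO 9 the spots of single variants disagreed, as with 97.1, 84.2 and 45267 for b7007_2_3. The ratio there depends on which spot is the median, so unequal change of the variants is not shown. These ratios were chosen for description after the values were seen.

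The other variants of probe group 2 were detected in fewer samples. Variant b7007_2_23 was detected in 10 samples and, with b7007_3_7, had the largest spread of log2 values among the members detected in at least 6, with SDs of 4.94 and 4.96 over the 25 samples. Variant b7007_2_22 was detected in 7 samples, and b7007_2_21, named here after its values were seen, in 5.

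Probe groups 3, 4 and 5 were detected less often. In probe group 3, 6 of 9 variants were detected in no sample, b7007_3_8 in 1, b7007_3_6 in 6 and b7007_3_7 in 9. The intensities of the undetected b7007_3_1 were 54 to 446 over all samples. In probe group 4 all 8 variants were detected somewhere, 5 of them in only 1 to 3 samples, b7007_4_8 in 7, b7007_4_5 in 21 and b7007_4_7 in 22. In probe group 5, 8 of 10 variants were detected in no sample, b7007_5_10 in 1 and b7007_5_8 in 5. The mean number of detected variants of probe group 4 was 3.17 ± 1.17 (SD, n = 6) under PO, 2.33 ± 1.37 (SD, n = 6) under A+PO, 1.83 ± 0.983 (SD, n = 6) under LO and 2.14 ± 1.07 (SD, n = 7) under A+LO, and the ranges of all diets overlapped.

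Among the 56 pairs of variants in a probe group that differ at 1 base, detection differed most within probe group 4. With C17T, from b7007_4_5 to b7007_4_1, the number of samples with the probe detected went from 21 to 3. Variant b7007_4_5 had intensities of 62.2 to 41122 with a median of 511 over all samples, and its highest values were 41122 in LO 11 and 14912 in PO 1. Variant b7007_4_1 was detected in PO 1 with 6658, in A+PO 1 with 2550 and in PO 2 with 244, and remained at 59 to 286 in the other samples. In LO 11, where b7007_4_5 was highest, b7007_4_1 had a median of 242 and was not detected, but its spots disagreed. They read 140748, 242 and 209 there, beside 41122, 61139 and 21872 for b7007_4_5.

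With C11A, from b7007_4_7 to b7007_4_8, detection went from 22 samples to 7. Variant b7007_4_7 was not detected only in A+PO 6, LO 4 and A+LO (LO 4 array). Variant b7007_4_8 was detected in PO 2, PO 5, A+PO 2, A+PO 5, LO 11, A+LO 9 and A+LO 11. In these 7 samples b7007_4_7 had its 7 highest intensities as well, so the variants followed the same samples and differed in how many of the others passed as detected. The third pair by the same rule, b7007_2_11 and b7007_2_17 with C22G, differed little, with 25 and 22 samples.

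The 7 samples named for b7007_4_8 recurred in 4 of the 5 probe groups. For b7007_3_7 the intensities were 235231 in PO 2, 236618 in PO 5, 61435 in A+PO 2 and 590938 in A+PO 5. They were 674229 in LO 11, 359693 in A+LO 9 and 216214 in A+LO 11. The highest of the 18 other samples was PO 1 with 3044, and the median of the others was 93.2. The 7 are defined as the 7 highest samples of b7007_3_7, so for this variant their lack of overlap with the others was fixed. They included 2 PO, 2 A+PO, 1 LO and 2 A+LO samples.

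For b7007_2_23 the same 7 samples had intensities of 148116 to 862172, with 6188 as the highest of the others and 108 as their median. For b7007_4_7 they had 71290 to 836300, with 17462 as the highest of the others and 365 as their median. For b7007_4_8 they had 2971 to 646138, with 1123 as the highest of the others. For b7007_1_4, named after its values were seen, they had 305889 to 697634, with 114995 as the highest of the others and 4288 as their median. Variant b7007_1_4 was thus detected in 23 samples and yet brightest in the same 7, while b7007_4_8 was detected in these 7 alone.

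Variant b7007_2_22 was also detected in these 7 samples and no other, but with a different order of intensities. It reached 558437 in LO 11, 72871 in A+LO 9 and 62126 in A+LO 11, 4696 in PO 5 and 744 in PO 2, and only 190 in A+PO 2 and 191 in A+PO 5, while PO 1 had 958 and was not called detected. In probe group 5, b7007_5_8 was detected in 5 of the 7, with 4644 in PO 5, 782 in A+PO 5, 15591 in LO 11, 737 in A+LO 9 and 1668 in A+LO 11. All other samples had 447 or less for this variant.

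Of the 4384 probes outside the set, 0 had the same 7 samples as their 7 highest, against 5 of the 57 members. These 5 include b7007_3_7, whose own 7 highest samples define the list, so its match was fixed. This comparison was chosen after the pattern was seen, and it is a description of these 25 samples. The 7 samples also had the 7 highest A22C ratios in the block of probe group 2, from 1.92 upward beside at most 1.78 in the other 18. Variant b7007_2_23 shares the last 17 bases with b7007_2_12 of that class and differs from it only by C4T and A8C. In number of detected members they were among the upper samples, with 36 in PO 2, 34 in A+PO 2, 33 in PO 5, LO 11 and A+LO 11, and 32 in A+PO 5 and A+LO 9, beside 32 in A+PO 1 and A+PO 3 among the others. This count includes b7007_2_22 and b7007_4_8, detected in the 7 samples alone, and b7007_5_8, detected only among them. It is therefore not independent of the pattern, and nothing further is read from it.

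These 7 samples come from 4 arrays: PO 2 with A+PO 2, PO 5 with A+PO 5, LO 11 with A+LO 9, and A+LO 11, for which the other channel is unlisted and not used here. On each of the 3 arrays with both samples listed, both were high, although they were given different diets. The part of the shared array in this pattern was not tested.

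Agreement between the samples of an array was seen over the whole set. Over the 12 arrays with both samples listed, there were 684 cases of a member on an array. Both samples had the member detected in 340 cases, neither in 320, and only 1 of them in 24 (3.51%). For the same 2 diets on different arrays, over 60 pairs of samples, only 1 sample had the member detected in 9.82% of 3420 cases. For the 11 members detected in 3 to 22 samples these shares were 6.82% and 35.3%. For all probes detected in 3 to 22 samples they were 16.4% and 36.5%, so closer agreement on a shared array was not limited to b7007. Whether it comes from the samples or from the shared hybridisation was not tested.

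The 3 spots of a member did not always agree. In 737 cases of a detected member in a sample, the highest spot was a median of 1.56 times the lowest, but in 14% of these cases it was over 8 times the lowest, against 9.94% of the detected cases of all probes. Over all members the share was highest in A+PO 5 and A+LO 9, with 35.1% in each, and 0% in 8 samples. For b7007_1_1 the spots read 676773, 6262 and 199682 in LO 11 and 185325, 143 and 17402 in A+LO 9 on the same array. The deviations of single spots from their probe's median were shared by both dyes of an array, with a Pearson r of 0.89 over 837 spots as a description.

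Outlier marks interact with these splits, because a deviating spot may be the only one left. The software marked 43% of the set's spots as outliers, against 22.3% of the spots of all probes. For b7007_2_3 in A+PO 5 the spots read 262562, 324763 and 244, and the 2 bright ones were the marked ones. The values of the wide splits in PO 5, A+PO 5, LO 11 and A+LO 9 therefore depend on which spots are used, and the part of this in the spread of the block was not tested.

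For comparisons between diets, intensities were background-corrected, put on the log2 scale and scaled by subtracting from each channel its 75th percentile over the 405 probes detected in all samples, so a value of 0 lies at that percentile. The 33 members detected in at least 6 samples entered a limma fit with all 1153 such probes of the array. The mean over the 33 members was -3.64 ± 1.69 (SD, n = 6) under PO, -5.67 ± 1.87 (SD, n = 6) under A+PO, -4.09 ± 2.34 (SD, n = 6) under LO and -4.34 ± 1.46 (SD, n = 7) under A+LO. All 4 ranges overlapped. The mean difference from PO to A+PO was -2.03, at a median of -1.98 over all 1153 probes. It was 0.82 with the median of the kept probes as scale and -0.40 with loess within arrays, so its direction depends on the scaling.

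For LO minus PO, the question of linseed oil without aleurone, 0 of the 33 members passed at an adjusted p under 0.05 (limma, Benjamini-Hochberg over the 1153 probes), beside 0% of all probes tested. The smallest adjusted p of a member was 0.756, and 0 members and 26 of all probes had an unadjusted p under 0.05. The median difference of the members was -0.06 beside -1.10 over all probes. The extremes were b7007_2_22 with 1.31 (SE 1.66, adjusted p = 0.779) and b7007_4_7 with -1.85 (SE 1.97, adjusted p = 0.764, limma). The sign of the latter turned to 0.10 when each channel was scaled by the median of the kept probes.

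For A+LO minus A+PO, linseed oil with aleurone, 0 members passed as well, beside 0% of all probes, and 4 members and 87 of all probes had an unadjusted p under 0.05. The median difference was 1.39 beside 0.68 over all probes. Variant b7007_2_22 differed by 4.98 (SE 1.63, adjusted p = 0.567, limma) and b7007_1_1 by -2.26 (SE 1.43, adjusted p = 0.587, limma). Without the filter on dim probes, 27 of all 57 members (47.4%) were called higher, beside 70.5% of all 4441 probes, with a median difference of 2.75 over all probes. The mean difference of the set, 1.33, was -1.45 with the median of all probes as scale, -0.03 with the background-subtracted signal and -0.25 with the processed signal, so its direction turns with the processing.

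For A+PO minus PO, aleurone with the control oil, 21 of the 33 members (63.6%) passed as lower and 0 as higher, beside 66.1% of all probes tested. This comparison involves values that chose the set, and nothing is read from the count. The median difference was -2.05 beside -1.98 over all probes. It was largest in size for b7007_2_15 with -3.39 (SE 0.83, adjusted p = 0.00161, limma), and b7007_2_1 had 0.01 (SE 0.54, adjusted p = 0.993, limma).

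The direction rests on the scaling. With the median of the kept probes subtracted, 4 members (12.1%) passed as higher and 0 as lower, beside 27.5% of all probes, whose median was 0.86. With loess within arrays 1 (3.03%) passed as higher, beside 7.46% of all probes, whose median was -0.19. Leaving out PO 5 gave 12 lower members (36.4%, beside 56.3% of all probes), A+PO 5 13 (39.4%, beside 50.4%) and A+PO 6 13 (39.4%, beside 48.3%).

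For A+LO minus LO, aleurone with linseed oil, 0 members passed, beside 4.94% of all probes, and 4 members had an unadjusted p under 0.05 beside 303 of all probes. The median difference was -0.83 beside -0.24. Variant b7007_2_24 differed by 1.66 (SE 0.60, adjusted p = 0.0833, limma) and b7007_2_14 by -2.01 (SE 0.93, adjusted p = 0.171, limma). Leaving out LO 4 gave 20 members past the test (60.6%, beside 43.7% of all probes) and leaving out A+LO (LO 4 array) gave 16 (48.5%, beside 42.2%), so the count turned on either sample of 1 array. It turned on the scaling too, with 22 members lower under quantile scaling within each dye (66.7%, beside 76.4% of all probes) and 5 higher when the median of the kept probes was subtracted (15.2%, beside 42.1%).

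The interaction, the aleurone difference with linseed oil less the one with control oil, compares both oils. Of the 33 members, 2 (6.06%) passed as higher, beside 28.2% of all probes, with a median of 1.56 beside 1.51. They were b7007_2_22 with 3.68 (SE 1.17, adjusted p = 0.0209, limma) and b7007_3_6, named because it is 1 of the 2, with 2.56 (SE 0.86, adjusted p = 0.0254, limma). The intensities of b7007_3_6 did not exceed 1657, and it was detected in 2 PO, 3 A+PO, 1 LO and 0 A+LO samples. Variant b7007_2_22 was detected in 7 samples in all, with intensities over 10000 in 3 linseed samples and 4696 in PO 5. Both differences thus rest largely on readings not called detected, and for b7007_3_6 the A+LO level is only a bound. The smallest value was -0.83 for b7007_1_1 (SE 1.02, adjusted p = 0.573, limma). With the median of all probes as scale, 4 members (12.1%) passed as lower, beside 15.4% of all probes. The count was 0 with the background-subtracted or processed signal, the median of the kept probes or loess, beside 0% to 1.04% of all probes. It was also 0 with quantile scaling, a filter at 12 samples or no array block, beside 0% to 9.83%. It was 0 without PO 1 (0% of all probes) or A+LO 1 (5.72%) and 4 without LO 4 (31.5%), LO 11 (23.4%) or A+LO (LO 4 array) (31.9%). It was 1 without PO 4, PO 5, A+PO 1, A+PO 4, A+PO 5 or A+PO 6, beside 16.4% to 26.5% of all probes.

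Members differed in how closely they followed the set. Over the 25 samples the Pearson r of a member's log2 values with the mean of the 33 members, which includes it, ran from -0.23 to 0.91 with a median of 0.72. It was -0.18 for b7007_1_1 and -0.15 for b7007_2_1. Among the 1120 kept probes outside the set the median was 0.15, and those most like the set value were b6994_2_7 with 0.75, b6965_1_4 with 0.72 and b6959_3_111 with 0.71. Samples share arrays, dyes and the scale, so these are descriptions with no test.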

How the data were processed

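The members and lists were chosen with earlier results of these data known. Per the file headers, Agilent Feature Extraction (version 10.5.1.1) wrote the deposited values, which are unlogged spot intensities, and marked spots as well above background or as outliers. The deposited mean signal and median local background intensity were corrected by normexp (offset 50), put on the log2 scale, averaged over the spots not marked as outliers (over all spots where all were marked) and scaled per channel, each dye as a single channel. Probes detected in at least 6 of 25 samples were kept. Group means were fitted over all samples with limma 3.58.1 in R 4.3.3, with the array as a random block (correlation 0.76) and Benjamini-Hochberg adjustment. The fit was tested on simulated data with noise and array shifts drawn separately for each probe. These data held no dye, channel-wide or spot effects, so that test does not bear on the scaling. Descriptions used Python 3.11.15. Precision is limited by the 13 arrays. 1 Cy3 channel with no listed sample was left out.

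Named probes are, per probe group, the variants detected in most and fewest samples, up to 12 detected in all samples, the largest and smallest difference per comparison, the 2 largest SDs, 3 pairs at 1 base, and the 3 outside probes most like the set. Replicate numbers of the control-oil samples are those of shared arrays. Alternatives covered the signal, scaling, spot marks, filter, detection test, array and replicate blocks and samples left out. The median of the 3 spots was added as an alternative after the data were seen.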

Additional observations from a re-analysis of the deposited data

Results flagged for a closer look

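In 12 of 112 combinations of a diet group and a measure of the set, 1 sample stood apart from the others of its diet by Dixon's test at its 95% level, which chance flags in about 1 of 20 groups. PO 1 stood above the other PO samples in the scaled log2 values of probes not detected there, with -8.67 for b7007_2_2 (the others -12.02 to -10.99), -8.85 for b7007_3_1 (-12.27 to -11.12), -8.08 for b7007_4_3 (-11.88 to -10.96) and -9.39 for b7007_5_5 (-12.21 to -11.27). The 4 probes did not pass the detection test in PO 1, although their intensities there were 342, 446, 709 and 276. The sample medians of the local background were at most 90. PO 1 was also high in b7007_4_1, with -4.59 beside -12.10 to -9.99, and A+PO 1 on the same array had -7.69 beside -12.60 to -11.58. A+PO 1 was low in b7007_2_24, with -1.07 beside 0.04 to 0.40, and its spots read 466249, 103204 and 440265.

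In the linseed groups, LO 4 had the lowest value of the 33 tested members, -8.67 beside -4.37 to -2.44. LO 3 was low in b7007_2_1, with -2.41 beside -0.70 to 0.02, and in b7007_2_24, with -5.15 beside -0.14 to 0.38. A+LO 1, on the same array as LO 3, was low in b7007_2_1, with -6.15 beside -0.06 to 1.82. The spots of b7007_2_1 disagreed, with 92758, 548060 and 277 in A+LO 1 and 201363, 424703 and 7219 in LO 3. A+LO (LO 4 array), lowest for this variant by the median of the spots, lies among the others here, where spots marked as outliers are left out. A+LO (LO 4 array) had 18 detected members beside 27 to 33.

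In the interaction term of the limma fit, b7007_2_22 had a fitted value of 3.68 and b7007_3_6 one of 2.56 on the log2 scale. Both rest largely on readings not called detected, the share of members called lies below that of all probes, and b7007_2_22 was 0.66 with loess.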

How the results depend on the processing

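The 0 members past the test for LO minus PO kept their value under every alternative run. For A+LO minus A+PO it was 27 without the filter on dim probes (47.4%, beside 70.5% of all probes) and 0 under the others. For A+PO minus PO the main count was 21 lower members (63.6%, beside 66.1% of all probes). Scaled to the kept probes' median, 4 were higher (12.1%, beside 27.5%). With loess and Aquantile 1 was higher (3.03%, beside 7.46%), and with the median of all probes 1 was lower (3.03%, beside 25.9%). With outlier spots kept 34 were lower (91.9%, beside 78.8%), and without the array block 0 (0%, beside 0%). Leaving out single samples gave 12 (36.4%, beside 56.3%) to 30 (90.9%, beside 78.6%). For A+LO minus LO the main count was 0 (0%, beside 4.94% of all probes). The background-subtracted signal gave 18 (54.5%, beside 63.4%), the processed signal 17 (51.5%, beside 60%) and the median of all probes 20 (60.6%, beside 57.7%). The median of the kept probes gave 5 (15.2%, beside 42.1%), loess 5 (15.2%, beside 18.8%) and quantile scaling within each dye 22 (66.7%, beside 76.4%). Outlier spots kept gave 6 (16.2%, beside 26%) and the median of the 3 spots 6 (18.2%, beside 29.7%). Leaving out single samples gave 0 to 20, with 60.6% beside 43.7% at 20. For the interaction the main count was 2 higher (6.06%, beside 28.2% of all probes). With the median of all probes 4 were lower (12.1%, beside 15.4%). The background-subtracted signal, the processed signal, the median of the kept probes and loess each gave 0, beside 0% to 1.04%. Quantile scaling, the filter at 12 samples and no array block also gave 0, beside 0% to 9.83%. Outlier spots kept gave 12 (32.4%, beside 47.5%), no filter 35 (61.4%, beside 83.9%) and a fixed array block 5 (15.2%, beside 30.8%). Leaving out single samples gave 0 to 4, with 12.1% beside 23.4% to 31.9% at 4.

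The mean difference of the set turned from -2.03 to 0.82 for A+PO minus PO when scaled to the kept probes' median, from 1.33 to -1.45 for A+LO minus A+PO with the median of all probes, and for the interaction from 1.78 to -0.80 under that scale and -0.17 with loess. It also changed sign, within 1 SD between samples, for LO minus PO from -0.45 to 1.26 (kept probes' median), 0.60 (quantile) and 0.38 (loess), for A+LO minus LO from -0.25 to 1.29 (kept probes' median) and 0.35 (no filter), and for A+LO minus A+PO to -0.03 (background-subtracted) and -0.25 (processed). Leaving out single samples gave -2.46 to -1.53 for A+PO minus PO, 0.83 to 1.76 for A+LO minus A+PO, 0.87 to 2.21 for the interaction, -0.87 to 0.46 for LO minus PO and -1.16 to 0.08 for A+LO minus LO. Detected members at 3 background SDs were 46.7 for PO, 31.2 for A+PO, 48.2 for LO and 22.4 for A+LO, against 31.3, 30.7, 28.3 and 27.9. The difference of b7007_4_7 for LO minus PO turned from -1.85 to 0.10 under the kept probes' median. With the replicate block, 30 members were lower for A+PO minus PO (90.9%, beside 79.6% of all probes), against 21. For A+LO minus LO the replicate block gave 0 (0%, beside 0%), but this fit cannot decide that comparison. Most A+LO samples have no settled replicate number and could not be paired with an LO sample by number. For the linseed samples a shared number also does not mean a shared array. Nothing is read from this 0. The cause of these changes was not tested. Among the limits on precision are the number of arrays, the brightness over background and spots that disagree. For dim variants the value is a bound.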
